A study of Mus musculus with 10 samples.

Results

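The 9 genes described here encode the sarcomeric myosin chains of the heart and a kinase that acts on them. They were taken by symbol from the deposited table of 23337 genes, and all 9 were present: Myl7, Myl2, Myl4, Myl3, Myl1, Myh6, Myh7, Myh7b and Mylk3. All 9 also passed the filter on low counts, so each was among the 13191 genes tested. RNA came from the left atria of adult mice of mixed C57B6 and 129 background, with 4 libraries labelled control and 6 labelled knockout, each from its own animal (2 and 3 of them female). Control animals were labelled wild type (Tbx5 +/+). Knockout animals were labelled Tbx5 -/-, with exon 3 of Tbx5 excised by a tamoxifen-inducible Cre under the ubiquitous R26 promoter. Because R26 acts in every cell type, the deletion is not limited to cardiomyocytes. The protocol gives daily tamoxifen of 0.167 mg over 3 days, and atria were collected after 1 week. The labels do not say whether controls carried the Cre or received tamoxifen. Age is given as 8 to 10 weeks in the labels and as 6 to 8 weeks in the protocol.

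A sarcomeric myosin is built from a pair of heavy chains, which carry the motor, and light chains that wrap the lever arm of each. Every heavy chain holds 1 essential and 1 regulatory light chain. Adult mouse atrium is known for the atrial regulatory chain MLC2a (Myl7), the atrial essential chain MLC1a (Myl4) and the fast alpha heavy chain (Myh6). Ventricle uses the regulatory chain MLC2v (Myl2) and the essential chain MLC1v (Myl3), and the slow beta heavy chain (Myh7) is that of fetal ventricle and slow skeletal muscle. Myl1 encodes the essential chains of fast skeletal muscle, Myh7b a slow-type heavy chain, and Mylk3 the cardiac kinase that phosphorylates regulatory light chains.

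Depth ran from 5701670 to 7697556 assigned reads per library. Tbx5 itself, the targeted gene, was higher in the libraries labelled knockout, at 1952 ± 336 normalized counts (SD, n = 6) against 939 ± 125 (SD, n = 4). Its count covers the whole gene and does not measure the loss of exon 3, so every direction below rests on the labels alone. Markers of the atrial cardiomyocyte were present in all libraries (summed 236104 to 255125 normalized counts in controls and 56666 to 161676 in the libraries labelled knockout), and 5 of 5 tested markers fell (of all tested genes 42.6% were called, 20.8% as higher and 21.8% as lower). Most of the summed atrial counts came from Nppa, with a mean of 213896 in controls and 104127 in the libraries labelled knockout. Bmp10, also on the atrial list, had 1 to 4 reads per library and was not tested. Among 15 markers common to all cardiomyocytes 7 rose and 3 fell. Of the other lists, 4 of 6 fibroblast markers were higher and 1 lower, 2 of 4 endothelial markers were higher and 1 lower, 3 of 3 macrophage markers were higher, and conduction system markers fell in 2 of 3 tested. In tissue RNA, fewer cells of a type and less RNA per cell cannot be told apart.

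The start sites of Myl7 and Myl3 are shown first, because these genes moved far in opposite directions. The sequences are the RefSeq windows (GRCm38.p6) that precede the start of the principal transcript, on the coding strand. Capitals mark a CArG box, the site known for serum response factor.
Myl7, chr11:5898783-5899032, minus strand: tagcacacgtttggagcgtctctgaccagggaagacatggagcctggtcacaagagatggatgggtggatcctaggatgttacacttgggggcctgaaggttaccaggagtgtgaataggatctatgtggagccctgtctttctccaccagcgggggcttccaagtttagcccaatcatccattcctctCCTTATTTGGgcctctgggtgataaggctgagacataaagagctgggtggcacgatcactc
Myl3, chr9:110763428-110763645, plus strand: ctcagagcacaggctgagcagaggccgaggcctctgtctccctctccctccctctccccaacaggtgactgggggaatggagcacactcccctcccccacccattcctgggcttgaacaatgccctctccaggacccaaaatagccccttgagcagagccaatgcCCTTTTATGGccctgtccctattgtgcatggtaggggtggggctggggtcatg
The Myl7 stretch ends just before its start site at position 5898782. The Myl3 stretch is the first 218 bases of a window of 250, without the 32 bases that lie inside its first exon. RefSeq gave windows for all 9 genes (12 in all), 6 of the genes with one within 60 bases of the principal start. Both strands of each window were searched over 250 bases for 3 spelled motifs and, after those, the CArG box. The T-box half-site AGGTGT was found in none of the 12 windows, against 11.8% of 32851 RefSeq windows. The letters TAAAAATA (the core of a MEF2 site) occurred in the Myh7b window (2.45% of all windows), and AGATAA, which zinc-finger factors of the heart are known to bind, in the Myh7b window and in windows of Myl2 and Mylk3 that lie far upstream of the principal start (9.99%). The CArG box occurred in the windows of Myl7, 61 to 52 bases upstream, and of Myl3, 85 to 76 bases upstream of the RefSeq start (1.47% of all windows). These are matches of letters only. No window of Myl2, Myl4 or Myl1 lies at the principal start.

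The comparison asked how the myosin genes differ in the left atrium after adult removal of Tbx5. The atrial light chains Myl7 and Myl4 fell, the light chains typical of ventricle and fast skeletal muscle, Myl2, Myl3 and Myl1, rose, and the heavy chains changed little beside them. In all, 3 of the 9 genes rose and 4 fell at an adjusted p of 0.05 (edgeR quasi-likelihood test, Benjamini-Hochberg over all tested genes). The shares called over all tested genes, 42.6% in either direction, 20.8% higher and 21.8% lower, are the background for this count. The 7 called genes were also the 7 in which no library labelled knockout overlapped a control, which held for 31.3% of tested genes. The median log2 fold change of the 9 genes was 0.34, against -0.00092 over all tested genes. Reads on the 9 genes made up 4.24% to 4.83% of each control library and 2.69% to 3.46% of each library labelled knockout.

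**Figure D1:**
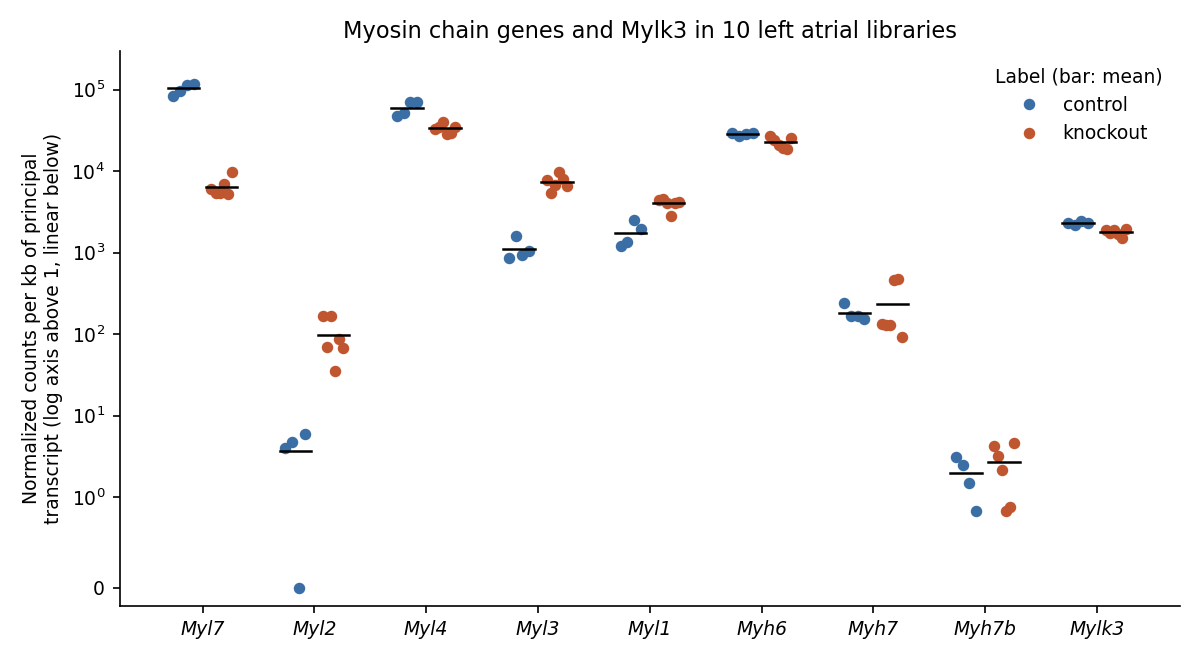
Level of each gene in each library, in normalized counts per kilobase of principal transcript (log axis above 1, linear below), with controls in blue, libraries labelled knockout in orange and bars at the means. Myl7 and Myl4 lie lower, and Myl2, Myl3 and Myl1 higher, in every library labelled knockout than in any control, while Myh7 and Myh7b overlap.

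Myl7 showed the largest fall of the 9 genes. Normalized counts in controls were 48909 in M1, 57560 in M2, 67950 in F1 and 70059 in F2. In the 6 libraries labelled knockout they ran from 3088 through a median of 3357 to 5719. Every such library was thus far below every control, and the highest of them was knockout M3. The log2 fold change was -4.03 ± 0.19, a 16.4-fold lower level (edgeR adjusted p = 1.68e-08). In the authors' deposited table the log2 fold change of Myl7 was -3.87. Myl7 lies on chromosome 11 (5896637 to 5898782, minus strand, GRCm38).

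Myl2, the ventricular counterpart of Myl7, went the other way from a level near 0. Control libraries held 3, 5, 0 and 5 reads in M1, M2, F1 and F2. The libraries labelled knockout held 174, 66 and 156 reads in F1, F2 and F3, and 30, 84 and 55 in M1, M2 and M3. All 6 exceeded all controls, and the spread among them was wide, with a coefficient of variation of 56.0% on normalized counts. The fitted log2 fold change was 4.64 ± 0.60 (edgeR adjusted p = 4.45e-05). The authors' deposited table gave 3.14, below the 3.79 to 5.36 of the 21 alternatives run here. Whether that value was estimated in the same way was not tested. From so few control reads, the size of this rise is uncertain. Of 51-base windows along the longest Myl2 transcript, 2.03% also occur in Ccdc63, which overlaps it on the other strand (Myl2: chromosome 5, 122100951 to 122113472, plus strand).

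The rise of Myl2 was small beside the loss of Myl7. On normalized counts per kilobase of principal transcript (590 bases for Myl7, 889 for Myl2), the mean of Myl7 dropped by 97163 and that of Myl2 gained 94.8, or 0.0976% of that loss (0.0445% per kilobase of all annotated exons). As a share of the 2 regulatory chains per kilobase of all annotated exons, Myl2 made up 0.00167% ± 0.0011 in controls (SD, n = 4) and 0.753% ± 0.479 in the libraries labelled knockout (SD, n = 6). Control F1 had no Myl2 read among 58753, which allows a share of up to 0.00511% of reads. This limit covers counting error only. It is on raw reads, where the share was 0.00725% in control M1, 0.00735% in M2 and 0.00746% in F2. Those shares rest on 3, 5 and 5 reads and carry counting error too, so F1 is not shown to lie below them. Per kilobase of all annotated exons, the share in the libraries labelled knockout ran from 0.231% in M1 to 1.39% in F3, above every control. The difference of 0.751 percentage points gave p = 0.019 in an exact two-sided permutation test over the 210 splits (0.0333 adjusted over the 7 shares tested). Per kilobase of principal transcript the shares were 0.00366% and 1.63%, with the same p. Leaving out any 1 control library gave an adjusted p of 0.0625.

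Other sarcomeric regulatory chains were scarce as well. The fast skeletal chain Mylpf had 2 to 14 reads in any library and Myl10 at most 1, and neither was tested.

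Myl4, the atrial essential chain, fell less than Myl7. Its normalized counts in controls were 45238 in M1, 48306 in M2, 66397 in F1 and 67313 in F2, and they ran from 27083 through a median of 32172 to 37865 in the libraries labelled knockout. No libraries overlapped between the groups. The log2 fold change was -0.87 ± 0.15, 1.82-fold lower (edgeR adjusted p = 0.00033). Myl4 lies on chromosome 11 (104550663 to 104595753, plus strand).

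Myl3, the ventricular essential chain, rose strongly from a moderate level. Controls held 810, 1497, 880 and 968 normalized counts in M1, M2, F1 and F2, and the libraries labelled knockout ran from 5086 in F2 through a median of 6820 to 9265 in M1. The lowest of these was more than any control. The log2 fold change was 2.72 ± 0.20, 6.57-fold higher (edgeR adjusted p = 6.24e-07). Myl3 lies on chromosome 9 (110741861 to 110769798, plus strand), where the opposite-strand gene Pth1r overlaps its upstream end.

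Myl1, the fast skeletal essential chain, rose by less. Controls held 963, 1096, 2016 and 1571 normalized counts in M1, M2, F1 and F2, against a range from 2247 in M1 through a median of 3316 to 3684 in the libraries labelled knockout. Knockout M1, the lowest of them, still lay above the highest control, F1. The log2 fold change was 1.16 ± 0.20, 2.24-fold higher (edgeR adjusted p = 0.00037). For Myl1 (chromosome 1, 66924295 to 66945404, minus strand), 23.2% of 51-base windows also occur in the pseudogene Mylf-ps, so its reads may be shared and its level is uncertain.

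Markers of ventricle and skeletal muscle were read beside these rises. Of 4 tested ventricular markers 1 rose, Lbh (20.8% of all tested genes were called higher). The ventricular factor Irx4 was at 0 in all 10 libraries. The 5 ventricular markers summed to 348 to 806 normalized counts in controls and 1180 to 1994 in the libraries labelled knockout. Nearly all of this was Lbh, at 459 ± 215 and 1633 ± 290, and the other three tested markers, Hey2, Mpped2 and Irx5, were not called. Among skeletal muscle markers none of 4 tested rose and 1 fell, Tnni2 (21.8% of all tested genes were called lower). The muscle factor Myod1 and Mybpc1 were at 0 throughout. The sum of the skeletal muscle markers was 8345 to 10517 in controls and 8928 to 12695 in the libraries labelled knockout. It is mostly the creatine kinase Ckm, which heart also makes. The part of other cells in the Myl2, Myl3 and Myl1 results was not tested.

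Within the essential light chains the composition shifted from Myl4 towards Myl3 and Myl1. A share within a library does not depend on how libraries are scaled to each other. On reads per kilobase of all annotated exons, Myl4 made up 91.1% ± 1.34 in controls and 57.9% ± 5.21 in the libraries labelled knockout (SD, n = 4 and 6). Myl3 went from 3.94% ± 1.61 to 28.9% ± 6.54 and Myl1 from 4.97% ± 0.827 to 13.2% ± 2.13. None of the 3 shares overlapped between the groups. Each gave p = 0.0048 in the exact two-sided permutation test, the smallest that 210 splits can give (0.0111 adjusted over 7 shares). The 3 shares add up to the whole in each library, so these are not 3 separate results. The annotated exons of Myl4 add up to 4637 bases, whereas its principal transcript has 943. For Myl3 these lengths are 2044 and 937 bases, and for Myl1 2074 and 803. Per kilobase of principal transcript, a scale chosen after the values were seen, Myl4 went from 95.4% ± 0.663 to 74.4% ± 3.88, Myl3 from 1.83% ± 0.767 to 16.7% ± 4.44 and Myl1 from 2.74% ± 0.452 to 8.9% ± 1.31, with the same p. The Myl3 share on this scale was lowest in knockout F2, at 12.0%, and highest in knockout M1, at 23.9%.

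**Figure D2:**
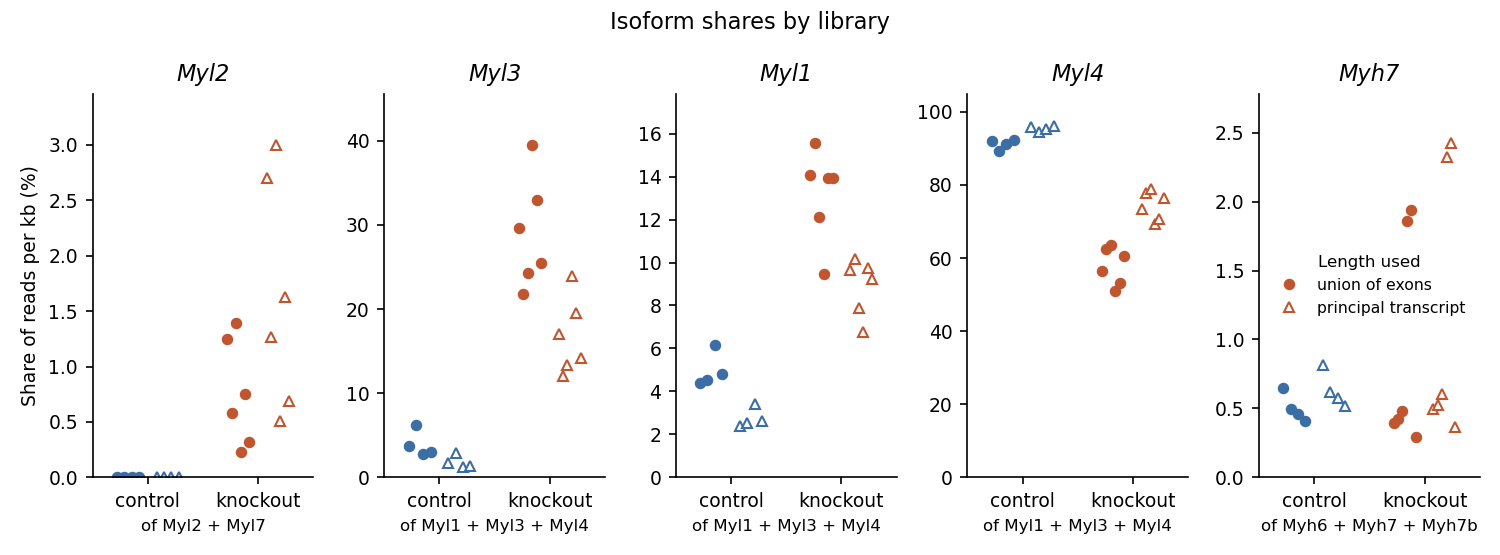
Share of each isoform among the chains of its class in each library, in percent of reads per kilobase, with filled circles for the length of all annotated exons and open triangles for the principal transcript. The Myl3 and Myl1 shares are higher and the Myl4 share lower in every library labelled knockout (orange) than in any control (blue), and for Myh7 only knockout M1 and M2 stand above the controls.

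Summing each class showed how unevenly the light chains moved. On normalized counts per kilobase of principal transcript, the regulatory chains summed to 103596 ± 16616 in controls and 6527 ± 1692 in the libraries labelled knockout (SD, n = 4 and 6), or 6.30% of the control mean. The essential chains went from 63114 ± 12818 to 45019 ± 3489, which is 71.3%, and the heavy chains from 28811 ± 1342 to 22815 ± 3091, which is 79.2%. The gain of Myl3 and Myl1 together equalled 32.1% of the loss of Myl4 on this scale. The ratio of regulatory to essential chains was 1.56 to 1.80 in controls and 0.109 to 0.214 in the libraries labelled knockout. Sums over several genes move with the lengths taken. Per kilobase of all annotated exons, the essential chains went from 13441 ± 2684 to 11782 ± 581, or 87.7% of the control mean. The gain of Myl3 and Myl1 then equalled 69.4% of the loss of Myl4, whose annotated exons are far longer than its principal transcript. On that scale the regulatory chains were at 6.25% and the heavy chains at 79.1% of control, and the ratio of regulatory to essential chains was 7.33 to 8.35 against 0.425 to 0.830. These sums over the genes are given as a description, with no test.

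**Figure D3:**
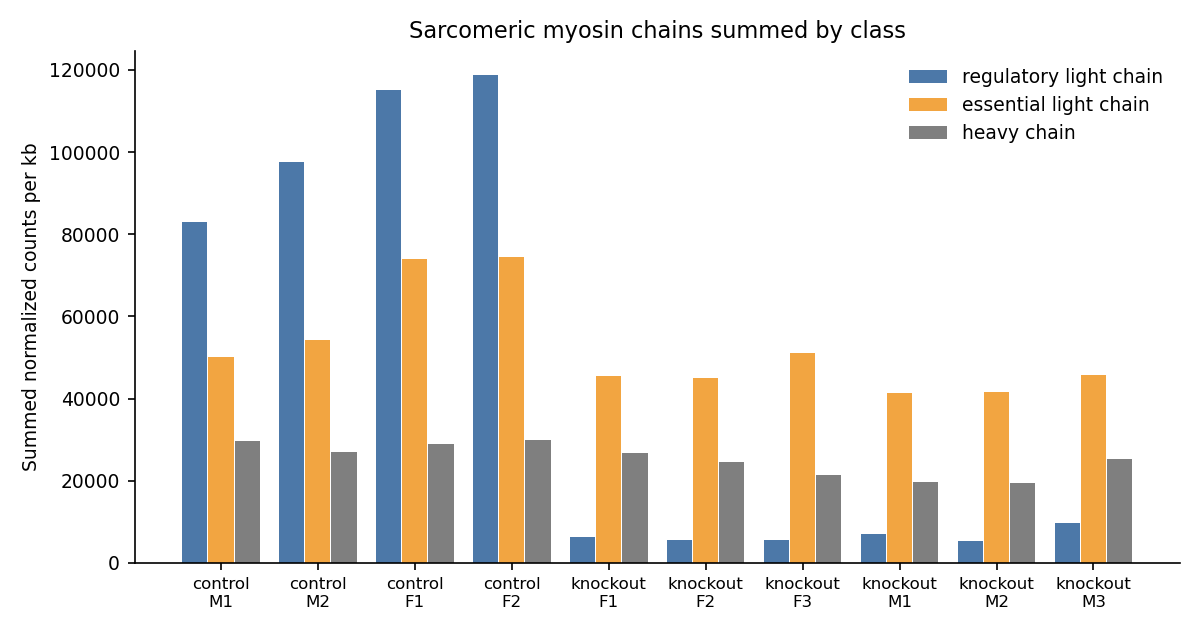
Summed level of the regulatory light chains (Myl7, Myl2), essential light chains (Myl4, Myl3, Myl1) and heavy chains (Myh6, Myh7, Myh7b) in each library, in normalized counts per kilobase of principal transcript. Regulatory chains are the tallest bars in all 4 controls and the shortest in all 6 libraries labelled knockout.

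Levels per kilobase of principal transcript also put the genes in order. In controls the order by mean was Myl7 (103592), Myl4 (60248), Myh6 (28628), Mylk3 (2328), Myl1 (1758), Myl3 (1108), Myh7 (182), Myl2 (3.66) and Myh7b (1.97). The ranges of Mylk3 and Myl1, of Myl1 and Myl3, and of Myl2 and Myh7b overlapped there, and those of the other neighbours did not. In the libraries labelled knockout the order was Myl4 (33603), Myh6 (22577), Myl3 (7412), Myl7 (6429), Myl1 (4005), Mylk3 (1771), Myh7 (235), Myl2 (98.5) and Myh7b (2.66). Myl7 thus went from the first place to the fourth, after Myl3, whose range of 5428 to 9888 overlapped that of Myl7, 5234 to 9694. Myh7 and Myl2 overlapped as well. Per kilobase of all annotated exons Myh6 stood above Myl4, at 26018 against 12252 in controls and 20519 against 6834 in the libraries labelled knockout, and Myl3 (3398) stood below Myl7 in the latter.

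Among the heavy chains, the alpha chain gene Myh6 remained by far the most abundant. Controls held 179878, 163356, 175540.5 and 181226 normalized counts in M1, M2, F1 and F2, and the libraries labelled knockout ran from 115525 in M2 through a median of 139117 to 162884 in F1. The groups did not overlap, but the highest of the 6, knockout F1, came close to control M2. The log2 fold change was -0.37 ± 0.13 (edgeR adjusted p = 0.0377). This call was lost with scaling to library size alone (-0.23, adjusted p = 0.122), without a filter on low counts (adjusted p = 0.0996), in either sex alone, and on leaving out any 1 of the 4 controls or of knockout F3, M1 and M2 (adjusted p from 0.0537 to 0.107). Myh6 (chromosome 14, 54941921 to 54966927, minus strand) shares 22.2% of its 51-base windows with Myh7, so some reads may have been dropped or exchanged between them.

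Myh7, the beta heavy chain gene, divided the libraries labelled knockout. Controls held 1502 normalized counts in M1, 1035 in M2, 1032 in F1 and 955 in F2. Knockout M1 and M2 held 2858 and 2925, above all controls, whereas knockout F1, F2 and F3 held 825, 804 and 799.7 and knockout M3 held 575, below all controls. The coefficient of variation was 75.8% among the libraries labelled knockout and 22.1% among controls. With this spread the log2 fold change of 0.34 ± 0.43 did not pass (edgeR adjusted p = 0.549), and its approximate 95% interval ran from -0.49 to 1.18. Female libraries fitted alone gave -0.32 ± 0.11 (edgeR adjusted p = 0.0312), but the female effect in the fit of all 10 libraries, which shares 1 estimate of the spread, had an adjusted p of 0.634. Myh7 made up 0.502% ± 0.103 of heavy chain reads per kilobase of all exons in controls and 0.897% ± 0.778 in the libraries labelled knockout (exact permutation p = 0.443, adjusted 0.443). Of its windows 27.8% also occur in other genes, and the antisense gene Mhrt overlaps Myh7 (chromosome 14, 54970684 to 54994626, minus strand).

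Myh7b was barely detected, with 5 to 31 reads per library. Its log2 fold change was 0.40 ± 0.49 (edgeR adjusted p = 0.538, approximate 95% interval -0.55 to 1.36), so it did not pass. Knockout M1 and M2, the libraries with the most Myh7, held 5.19 and 5.5 normalized counts of Myh7b, the least of the 6 labelled knockout, and knockout M3 held the most, 28.4. Female libraries fitted alone gave a log2 fold change of 1.44 (edgeR adjusted p = 0.027), but in the fit of all 10 libraries the female effect was 1.43 ± 0.69 (adjusted p = 0.141) and the male effect -0.43 ± 0.61 (adjusted p = 0.646). Myh7b lies on chromosome 2 (155611212 to 155634307, plus strand).

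**Figure D4:**
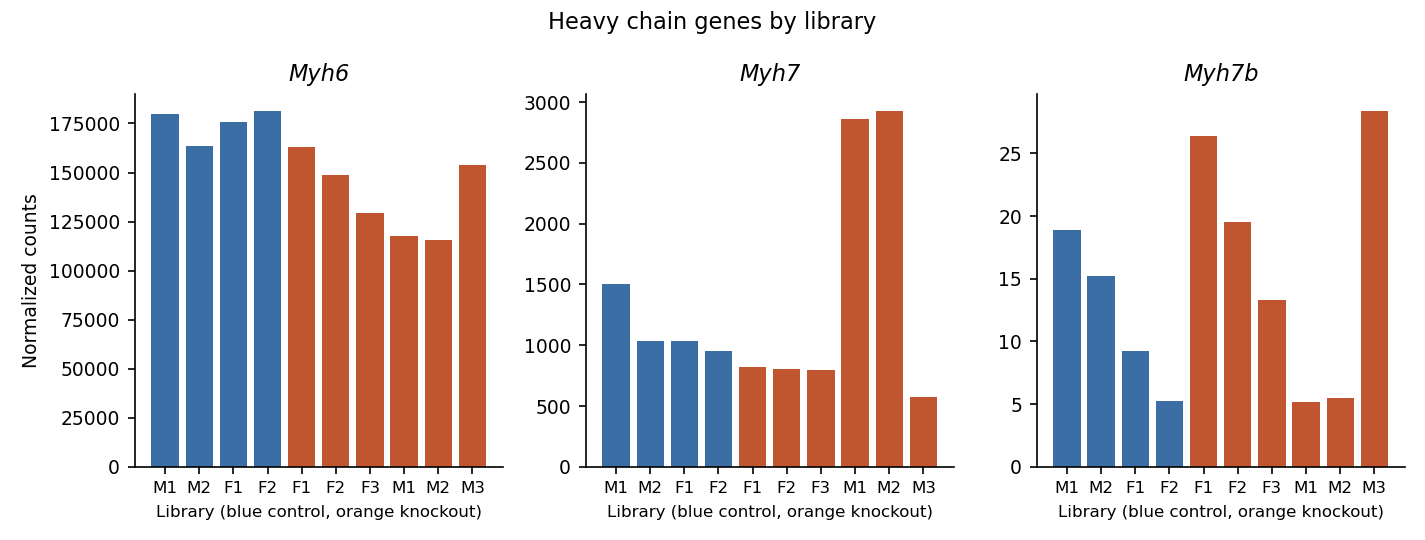
Normalized counts of the 3 heavy chain genes in each library, with controls in blue and libraries labelled knockout in orange, on a linear axis from 0 that differs between the panels. Myh7 is highest in knockout M1 and M2 (2858 and 2925) and lowest in knockout M3 (575), and Myh7b is highest in knockout M3 (28.4).

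Myh6, Myh7 and Myh7b each carry a microRNA in an intron, and the table has rows for these. Mir208a, inside Myh6, held 9 to 28 reads per library, and its log2 fold change of -0.35 ± 0.28 did not pass (edgeR adjusted p = 0.344). Mir208b, inside Myh7, held 28 to 52 reads, with a log2 fold change of -0.44 ± 0.18 (edgeR adjusted p = 0.0657, and adjusted p from 0.0474 to 0.557 over the alternatives). Knockout M1 and M2, high for Myh7, had 38 and 28 reads of Mir208b, and 28 was the lowest of the 10 libraries. Mir499, inside Myh7b, had no read in any library. Reads on these rows do not measure the mature microRNAs. Mhrt was not analysed here.

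Mylk3, the kinase gene, was modestly and evenly lower. Controls held 8513, 8172, 9144 and 8593 normalized counts in M1, M2, F1 and F2, and the libraries labelled knockout ran from 5578 in M2 through a median of 6683 to 7136 in M3, below every control. The log2 fold change was -0.42 ± 0.10, 1.34-fold lower (edgeR adjusted p = 0.0037). Male libraries fitted alone did not pass (-0.41, edgeR adjusted p = 0.153). Mylk3 lies on chromosome 8 (85324303 to 85386345, minus strand).

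The genotype effect was compared between the labelled sexes, with 2 controls and 3 libraries labelled knockout of each. No gene of the 9 passed the test of the difference (edgeR, sex by genotype term, adjusted p from 0.639 to 0.995), where 0.205% of tested genes did. At an unadjusted p of 0.05 it was 2 of 9, Myl7 and Myl1, against 7.15% of tested genes, and DESeq2 called none of the 9 at an adjusted p of 0.05. Myl7 had log2 fold changes of -4.41 ± 0.24 in females and -3.65 ± 0.23 in males (edgeR adjusted p = 0.639 for the difference). Myl1 had 0.93 ± 0.19 in females and a larger rise in males, a difference of -0.57 ± 0.26 for females minus males (edgeR adjusted p = 0.675). For Myh7 the effects were -0.32 ± 0.45 and 0.71 ± 0.46, a difference of -1.04 ± 0.64 (edgeR adjusted p = 0.806). Without knockout M3, the male with the least Myh7, that difference was -1.48 and passed (edgeR adjusted p = 0.0093). Taken singly in the same fit, 5 of the 9 genes were called in females (28.2% of tested genes) and 6 in males (26.1%), the light chains in both and Mylk3 in males. In controls both females lay above both males for Myl7, Myl4, Myl1 and Mylk3, and both males above both females for Myh7 and Myh7b. With 2 controls of each sex this was not tested, and its share over all tested genes was not counted.

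**Figure D5:**
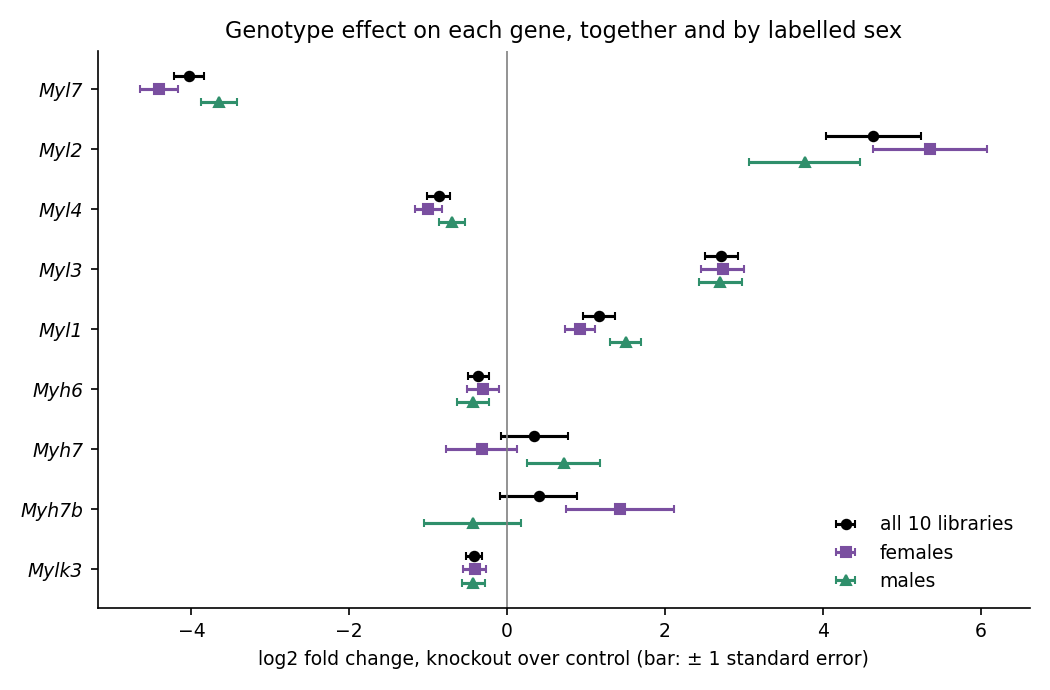
Log2 fold change of each gene, knockout over control, in all 10 libraries (black) and within females (squares) and males (triangles), with bars of 1 standard error. All 5 light chain genes have the same sign in both sexes, while Myh7 and Myh7b have opposite signs, and no difference between the sexes passed.

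Other myosin chains were read from lists given with the design. Of 10 other sarcomeric chains 9 were in the table and 1 had enough reads to test, the perinatal skeletal heavy chain Myh8, at 11.8 ± 3.23 normalized counts in controls and 28.7 ± 7.70 in the libraries labelled knockout, a rise of 1.25 ± 0.27 on the log2 scale (edgeR adjusted p = 0.0023). This call was lost in male libraries alone (0.95, edgeR adjusted p = 0.115). Myh1, Myh2, Myh3, Myh4 and Myh13 had 0 to 3 reads in any library, and Myh15 had none. Adult fast skeletal heavy chains were therefore near 0 in both groups.

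Among 9 smooth muscle and non-muscle chains 5 rose and none fell (20.8% of tested genes were called higher), with a median log2 fold change of 0.42. Myl9, the regulatory chain of smooth muscle and non-muscle myosin, held 2716 ± 96.2 normalized counts in controls and 6152 ± 1460 in the libraries labelled knockout, a rise of 1.16 on the log2 scale. Myl6, the essential chain of the same myosins, rose from 227 ± 43.4 to 514 ± 96.7, and the non-muscle heavy chain Myh9 from 2052 ± 120 to 3396 ± 540.7. Myl12a and Myl12b completed the 5. The smooth muscle heavy chain Myh11 held 71.6 ± 21.7 and 54.4 ± 20.5 (edgeR adjusted p = 0.255). Smooth muscle markers, Myh11 among them, rose in 4 of 6 cases and summed to 1848 to 2200 in controls and 2577 to 4043 in the libraries labelled knockout, and their part in these rises was not tested.

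Of 12 genes for light chain kinases and the myosin phosphatase 5 fell and none rose (21.8% of tested genes were called lower), with a median log2 fold change of -0.12. Mylk4, a kinase related to Mylk3, fell by 1.87 on the log2 scale, at 709 ± 184 normalized counts in controls and 198 ± 146 in the libraries labelled knockout, with overlapping ranges, and was not called in male libraries alone (edgeR adjusted p = 0.107). Ppp1r12a and Ppp1r12b, targeting subunits of the phosphatase, were also among the 5. The smooth muscle kinase Mylk held 171 ± 25.5 and 164 ± 22.5 (edgeR adjusted p = 0.642).

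Genes for myosin folding and filament assembly went both ways, with 2 of 8 higher, 3 lower (20.8% and 21.8% of tested genes) and a median log2 fold change of -0.33. Mybpc3, the cardiac myosin-binding protein C, was higher by 1.26 ± 0.11 on the log2 scale and Mybphl, a related protein of the atrium, lower by a log2 fold change of -1.23. Trim63, a ubiquitin ligase that acts on myosin, had a log2 fold change of -0.91, and the myosin chaperone Unc45b one of -0.73, from 2568 ± 333 to 1572 ± 182 normalized counts. Smyd1, a muscle methyltransferase that binds myosin, rose by 0.25.

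Genes whose log2 CPM followed Myl7 most closely over the 10 libraries, among 9590 compared, were Arfgef1, Sbk2, Stard10 and Psd3 (Pearson r from 0.993 to 0.995). For Myl3 they were Ccl8, Cndp2, Sox9 and Hist1h2bb (r from 0.983 to 0.989). With the group means removed, the same pairs had r from 0.700 to 0.863 for Myl7 and from 0.643 to 0.766 for Myl3. Because the pairs were picked by r over these same libraries, the second set of values is no separate support. These correlations describe 10 libraries that share groups and scaling, and they carry no p. Hist1h2bb has near-identical copies, and its count is uncertain.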

How the data were processed

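Left atrial RNA of 10 mice was read by single-end sequencing (51 bp, per the labels' protocols). Tools named in the submitters' processing notes were FastQC, TopHat2 2.0.11, featureCounts and DESeq2, on mm10. For the annotation, strand setting and multi-mapping reads, nothing is given in the sources used here. The labels' protocols name both an mRNA kit and ribosomal depletion.

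The authors deposited raw counts by gene symbol and a normalized signal, each count divided by 1 size factor per library (checked on the values). The deposited log2 fold changes, linear ratio (fold) and p-values are a comparison by the authors, per the file headers. The deposited test score was not used.

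Raw counts were tested with edgeR 4.0.16 in R 4.3.3: filterByExpr, TMM, quasi-likelihood F-test, Benjamini-Hochberg over 13191 genes at 0.05. The standard error is the log2 fold change over the square root of F, and 95% intervals are 1.96 standard errors. That multiplier is from a normal distribution, so the intervals are approximate and narrower than the F-test would give. Shares used exact permutation tests. Lengths came from GENCODE M21 (GRCm38, the assembly of mm10). Functions were tested on simulated data. No pair within a group agreed within sampling noise (lowest chi-square per degree of freedom 4.11).

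Alternatives were RLE or library-size scaling, DESeq2 1.42.0, limma-voom (limma 3.58.1), no filter or 50 counts in 4 libraries, sex or replicate block, 1 sex alone, offsets for exon length and GC content, other lengths and denominators for shares, and each library left out. Members, lists and tests were chosen with earlier results of these data known. Named are the 9 genes, up to 3 of each wider list by adjusted p and, for Myl7 and Myl3, the 4 genes of at least 50 normalized counts with the highest r. Values of 2 genes of the kinase and phosphatase list, the first by adjusted p, are not reported here. Myh11, Mylk, Unc45b, Smyd1, Ppp1r12a and Ppp1r12b were named after their values were seen, as were Myl12a, Myl12b, the ventricular markers and list members at 0.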

Additional observations from a re-analysis of the deposited data

Results flagged for a closer look

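In each group of 4 or 6 libraries the highest or lowest value was checked for its distance from the rest. This covered 50 group ranges (levels, shares, class sums and ratios). For independent, normally distributed values chance marks about 1 in 20, or 2.5 of 50, and 5 were marked. The ranges share genes and are not independent, so the 2 counts are given as a description only. Myl7 in knockout M3 held 5719 normalized counts, where the next library had 4061, and the summed regulatory chains, nearly all Myl7, stood out in the same library at 9761 per kilobase. Myl1 in knockout M1 was low, at 2247 against 3221 in the next. Myh7 in control M1 was high, at 1502 against 1035. The Myl2 share in control F1 was 0%, from no read, where the next control, M1, had 0.00219% from 3 reads.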

How the results depend on the processing

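The falls of Myl7 and Myl4 and the rises of Myl2, Myl3 and Myl1 kept their direction and their call in all 21 alternatives each. Mylk3 did so in 20 of 21 and Myh6 in 10 of 21, as given with their values above. Myl7 ranged from -4.41 to -3.64 and Myl3 from 2.54 to 2.97 on the log2 scale. Of the 9 genes 3 rose in every library left out in turn and 3 to 4 fell, and in male libraries alone 2 fell, with fewer samples. Over all genes 5622 were called, 4709 to 6085 with 1 library left out and 2061 in males alone. Under scaling to library size alone the median over all genes was 0.14 on the log2 scale (3942 higher and 2020 lower, against 2741 and 2881), which turned none of the 7 called genes. Myh7 turned to -0.32 in females alone, and the cause was not tested. The sex by genotype term was called for 27 genes, for 81 with DESeq2 and for 7 to 77 with 1 library left out, among these 0 to 1 of the 9 genes. The Myl2 share difference was 0.624 to 0.856 points with 1 library left out. It lost its call when any 1 of the 4 controls was left out, at an adjusted p of 0.0625 in the exact permutation test. Fewer splits then remain, and the cause was not tested. Other shares kept their side of the threshold in every tested alternative, and those within 1 sex had no test. With the replicate block 5411 genes were called and no call among the 9 changed. Same-labelled libraries had correlations of deviations from -0.126 to 0.172. Without values for differently labelled pairs, these cannot decide whether the labels pair libraries. Sums and levels per kilobase of all annotated exons, beside those of the principal transcript, were chosen after seeing the data. Low reads limit Myl2 in controls and Myh7b throughout.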
